A study of Homo sapiens
Mus musculus with 24 samples.

Results

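Neutrophils are short-lived phagocytes that are made in the bone marrow and reach tumors through the blood. Their granule proteins are made in sequence in the marrow: primary granule enzymes first, then secondary granule proteins, while receptors for chemokines and growth factors mark the mature cell. Cyclophosphamide and doxorubicin kill dividing marrow precursors and lower the blood neutrophil count for a time, after which the marrow refills the blood. The 7 host genes described here, S100a8, S100a9, Csf3r, Retnlg, Il1b, Clec4d and Trem1, were chosen as neutrophil genes by symbol, and all 7 were found among the 16667 murine genes measured. The question was whether their transcripts were lower in tumors of mice given the 2 drugs.

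Each of the 24 libraries came from 1 tumor of 1 female mouse carrying the B6/Rag1KO background, which lacks mature T and B cells but keeps neutrophils and macrophages. Tumors were grown from MDA-MB-231, a human triple negative breast cancer line, implanted with Matrigel and collagen under the skin at the neck base at 14 weeks of age, so human tumor cells and murine host tissue were sequenced together. High-fat fed mice received weekly saline (CTRL, n = 4), weekly injections of cyclophosphamide (100 mg/kg) and doxorubicin (2 mg/kg) (Chemo, n = 5), moringa seed concentrate at 0.6% of the diet (MC, n = 5), or the concentrate with both drugs (MC + Chemo, n = 6) for 4 weeks. A further 4 tumors came from mice on a lean diet without intervention (Lean). The drugs were given only together, so their separate parts cannot be told apart, and the interval between the last injection and tumor removal is not given in the sources used here. The library titled MC + Chemo 5 is entered as MC in another label and was taken here by its title. Lean 3, MC 41 and MC 42 had an extra RNA cleanup. Murine counts ran from 3664056 to 9892470 per library. A level below is a normalized read count, which is the read count divided by 1 size factor per library. Counts came from 3′ tags, so levels are compared between libraries and not between genes. In whole tumor RNA, fewer neutrophils and less RNA per neutrophil cannot be told apart.

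Other genes listed for mature neutrophils were set beside the members. Of 28 further mature neutrophil genes listed, 23 were analysed here. Their summed level was 2532 to 3363 in CTRL and 2183 to 3279 in Chemo, and these ranges overlapped. In MC it was 2809 to 5971 and in MC + Chemo 3550.0 to 8025, which overlapped with each other, and every MC + Chemo tumor lay above every CTRL tumor. Genes with high levels weigh most in this sum: Alox5ap had group means from 662 to 987 and Fpr1 from 21.5 to 48.4. The sum is thus not a measure of neutrophil content. Cxcr2, the receptor that draws neutrophils toward CXC chemokines, was read in all libraries, from 5.76 in CTRL 17 to 247 in MC + Chemo 25. Ly6g, the usual antibody marker of murine neutrophils, was not analysed here. Several members are not specific to neutrophils: monocytes and macrophages make Il1b, Trem1 and Clec4d, and stressed keratinocytes make S100a8 and S100a9.

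No member was called lower after chemotherapy. S100a8 and S100a9 had higher fitted levels in treated tumors on both diets, and the fitted folds of the other 5 over both diets lay between 0.90 and 1.38. A call required an adjusted p below 0.05 in edgeR's quasi-likelihood test with Benjamini-Hochberg adjustment over all murine genes tested, a mean normalized count above 30 and a fold change above 1.5. By this rule 0 of 7 members were called in Chemo against CTRL, where 0% of 15011 genes were called, 0 of 7 in MC + Chemo against MC (background 0%), and 0 of 7 for chemotherapy averaged over both diets (background 0.0266%). At an unadjusted p below 0.05, 2 of 7 members were higher in Chemo than in CTRL (2.13% of all genes tested), 1 of 7 in MC + Chemo than in MC (3.71%) and 2 of 7 over both diets (2.39%), and 0 were lower in any of these comparisons (2.4%, 6.16% and 3.3% of all genes). DESeq2 called 1 member over both diets, S100a8, beside 0.126% of all genes tested. It called 0 members in Chemo against CTRL (0.0841%) and 0 in MC + Chemo against MC (0.0481%).

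**Figure D1:**
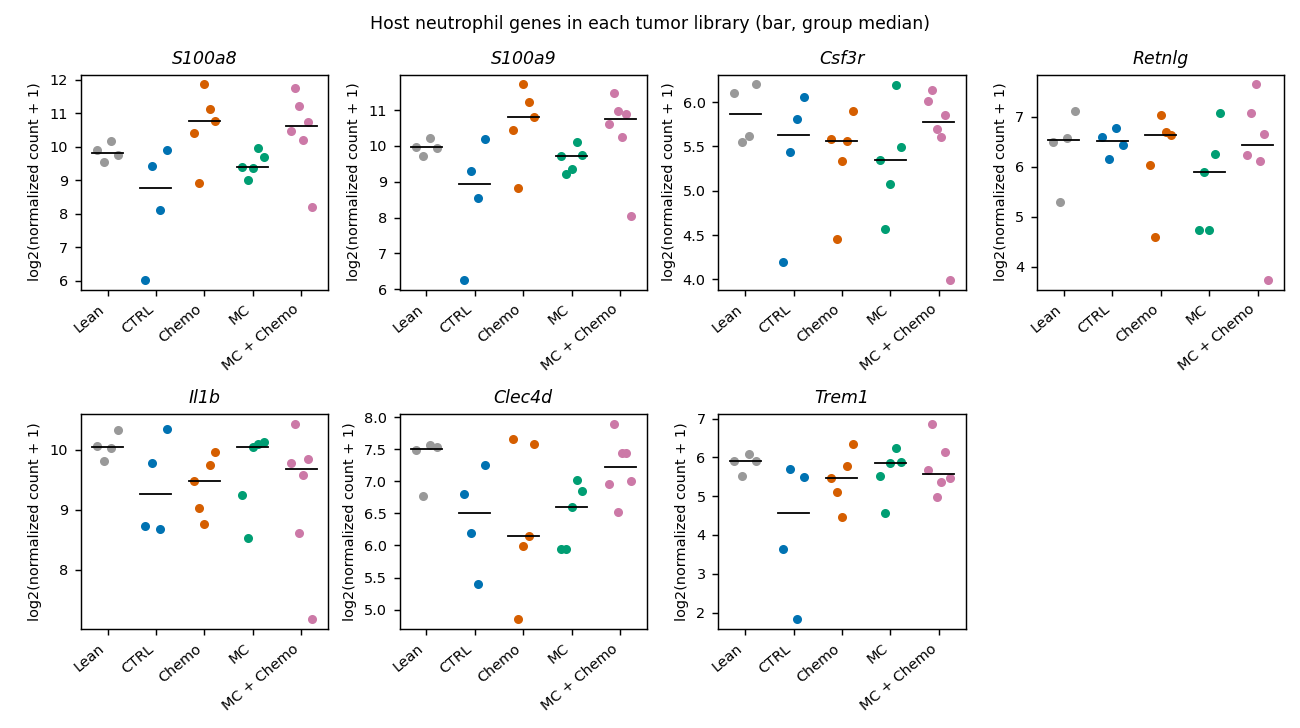
Level of each member, as log2 of the normalized count plus 1 (y axis), in each library of the 5 groups (x axis); points are tumors and bars are group medians. S100a8 and S100a9 sit higher in most Chemo and MC + Chemo tumors, while in the other members the treated and untreated tumors overlap.

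S100a8 (ENSMUSG00000056054) and S100a9 (ENSMUSG00000056071) encode the subunits of calprotectin, a zinc- and calcium-binding protein that fills the neutrophil cytosol and acts as a danger signal. The S100a8 level in CTRL was 64.3, 686, 277 and 968. In Chemo it was 1374, 479, 3742, 2221 and 1735. All Chemo tumors except Chemo 30 lay above the highest CTRL tumor. Without drugs the MC tumors held 668, 517, 657, 1009 and 830.0. The 6 MC + Chemo tumors ran from 293 to 3455 with a median of 1573. Here again 1 tumor, MC + Chemo 52, lay below every MC tumor, and the other 5 lay above them all. Lean tumors held 962, 752, 1157 and 861, a narrow band inside the range of the other groups.

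The mean S100a8 level was 1910 ± 1206 (SD, n = 5) in Chemo and 499 ± 406 (n = 4) in CTRL, a fitted fold of 3.81 (95% confidence interval 1.47 to 9.89, adjusted p = 0.935 by edgeR, unadjusted p = 0.00841). In MC + Chemo it was 1743 ± 1083 (n = 6) against 736 ± 188 (n = 5) in MC, a fold of 2.33 (1.01 to 5.37, adjusted p = 0.502 by edgeR). Over both diets the fold was 2.98 (1.58 to 5.61, adjusted p = 0.420 by edgeR). DESeq2 gave the same contrast an adjusted p of 0.0322, and that call held in 8 of 20 fits that each left out 1 library, with adjusted p from 0.00430 to 0.176. A two-sided exact permutation test of the mean log2 level within each diet gave p = 0.00847 over 58212 regroupings. Within 1 diet the exact permutation p was 0.0476 for Chemo against CTRL and 0.132 for MC + Chemo against MC. Over both diets the mean difference thus had a low p in single-gene tests but did not pass adjustment over all genes in edgeR. Treated and untreated tumors overlapped on both diets.

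S100a9 followed S100a8 library by library, with a Spearman correlation of 0.99 over the 24 libraries. Its level in CTRL was 75.9, 630.5, 377 and 1175, and in Chemo 1393, 456, 3381, 2410.4 and 1804. MC tumors held 839.7, 592, 649, 1097 and 858, and MC + Chemo tumors ran from 263 to 2881 with a median of 1721. The same tumors, Chemo 30 and MC + Chemo 52, fell outside the otherwise higher treated groups. The fold over both diets was 2.58 (1.40 to 4.75, adjusted p = 0.589 by edgeR, exact permutation p = 0.0182), with 3.33 for Chemo against CTRL and 2.00 for MC + Chemo against MC.

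**Figure D2:**
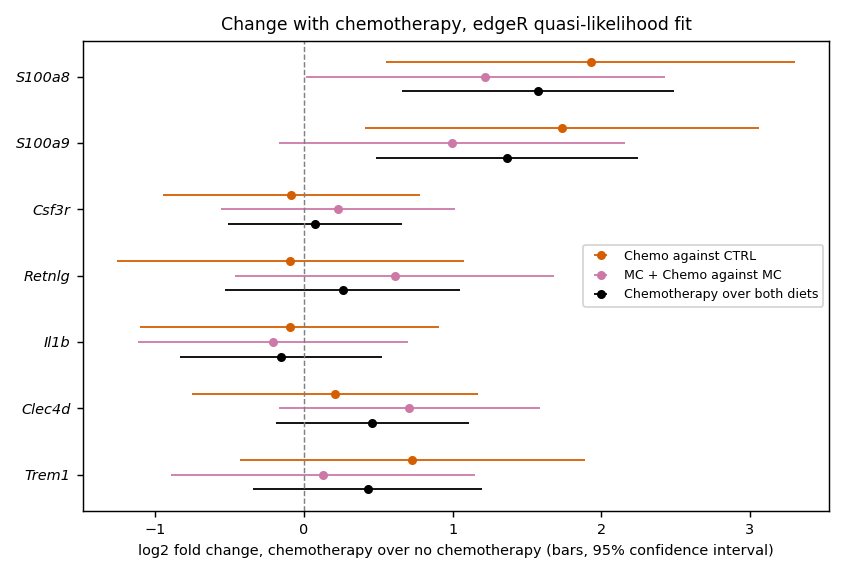
Fitted log2 fold change with chemotherapy (x axis) of each member (y axis) for Chemo against CTRL, MC + Chemo against MC and the average of both; bars are 95% confidence intervals. The intervals of S100a8 over both diets (0.66 to 2.49) and S100a9 (0.49 to 2.25) lie above 0, and those of the other 5 members include 0.

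Csf3r (ENSMUSG00000028859), the receptor for granulocyte colony-stimulating factor, drives neutrophil production and survival. It was 17.3, 42.5, 55.1 and 65.4 in CTRL and 46.8, 20.9, 39.3, 46.4 and 58.9 in Chemo. MC tumors held 39.7, 22.7, 32.8, 72.3 and 44, and MC + Chemo tumors ran from 15.0 to 69.5 with a median of 53.7. The groups overlapped almost fully. Over both diets the fold was 1.05 (0.70 to 1.58, adjusted p = 0.983 by edgeR). The lower end of that interval is 0.70 of the untreated level.

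Retnlg (ENSMUSG00000022651), a resistin-like protein made by mature neutrophils, spread widely among the MC + Chemo tumors. It was 96.0, 70.5, 108 and 84.8 in CTRL and 64.8, 23.3, 130.1, 102 and 97.9 in Chemo. The MC tumors held 25.4, 58.0, 25.6, 74.9 and 133, while MC + Chemo ran from 12.3 in MC + Chemo 52 to 199.6 in MC + Chemo 43 with a median of 86.8. The treated and untreated tumors overlapped on both diets. The fold was 0.94 (0.42 to 2.11) for Chemo against CTRL, 1.53 (0.72 to 3.21) for MC + Chemo against MC and 1.20 (0.69 to 2.07) over both, with an adjusted p of 0.960 by edgeR for the last.

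Il1b (ENSMUSG00000027398) encodes interleukin-1β, a cytokine released by activated neutrophils and macrophages that recruits further leukocytes. Its level was 422, 879, 409 and 1291 in CTRL and 710.5, 521, 435, 852 and 998 in Chemo. In MC it was 606, 369, 1050.5, 1085 and 1114, and in MC + Chemo it ran from 144 to 1381 with a median of 820.0. Both CTRL and MC tumors already spanned the Chemo values. Il1b was the 1 member with a fitted fold below 1 on both diets, 0.93 (0.46 to 1.88) and 0.87 (0.46 to 1.63), and over both it was 0.90 (0.56 to 1.44, adjusted p = 0.973 by edgeR). Leaving out CTRL 70 turned the log2 fold change over both diets from -0.15 to 0.05.

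Clec4d (ENSMUSG00000030144), a C-type lectin that senses fungal and mycobacterial glycolipids on myeloid cells, split the Chemo group. It was 110.4, 72.4, 41 and 152 in CTRL and 200.4, 27.9, 62.5, 69.9 and 190.0 in Chemo. Chemo 19 and Chemo 67 exceeded every CTRL tumor, and Chemo 30 lay below them all. MC tumors held 60.3, 60.8, 95.9, 128 and 114, and MC + Chemo tumors ran from 90.5 to 238 with a median of 150.0. The fold was 1.16 (0.59 to 2.25) for Chemo against CTRL and 1.64 (0.89 to 3.00) for MC + Chemo against MC. The second difference had an exact permutation p of 0.0390 and an adjusted p of 0.575 by edgeR.

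Trem1 (ENSMUSG00000042265), a receptor that amplifies inflammatory signals in neutrophils and monocytes, set a pair of CTRL tumors apart. Its level in CTRL was 11.5, 51.2, 2.56 and 44, where 2.56 stood for 2 reads. Chemo tumors held 43.2, 33.7, 21.2, 53.7 and 79.8, MC tumors 44.4, 22.7, 57.2, 74.0 and 58.3, and MC + Chemo tumors from 30.4 to 116 with a median of 46.7. All groups overlapped with the upper CTRL tumors. Over both diets the fold was 1.35 (0.79 to 2.30, adjusted p = 0.929 by edgeR). In Lean the level was 58.7, 44.9, 67.1 and 58.8, and the fold against CTRL was 2.04 (0.95 to 4.41, adjusted p = 1 by edgeR).

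A difference in the response to chemotherapy between diets was not detectable. For the interaction of chemotherapy with the concentrate, 0 of 7 members were called (background 0%), and unadjusted edgeR p ran from 0.366 for Retnlg to 0.867 for Il1b. The S100a8 fold with the concentrate was 0.61 times that without it, with an interval of 0.18 to 2.07, so a sizeable difference between diets in either direction was not detectable at this number of tumors. With the concentrate alone 0 of 7 members were called in MC against CTRL (background 0%; DESeq2 called 0 beside 1.41% of genes), with log2 fold changes from -0.50 for Retnlg to 0.89 for Trem1. In MC + Chemo against CTRL 0 of 7 were called (background 0%; DESeq2 called 0 beside 0.715% of genes), and S100a8 had a fold of 3.44 (1.36 to 8.70, adjusted p = 0.274 by edgeR). These comparisons share the CTRL tumors. All 7 members had a fitted log2 fold change above 0 in Lean against CTRL, from 0.01 for Retnlg to 1.03 for Trem1, and 0 were called (background 0%; DESeq2 called 0 beside 0.00601%).

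Within a library 2 genes share 1 size factor, so their ratio does not depend on the scaling, apart from the 1 added to each count. The ratio of S100a8 to Il1b and 10 other ratios of S100a8 or S100a9 to another member were chosen after the values were seen. S100a8 and S100a9 had already been seen to be higher in treated tumors, so higher ratios were partly set by that choice. Adjustment over the 11 ratios does not correct for it. The ratios restate the S100a8 and S100a9 differences and are not separate evidence of them. In CTRL the ratio to Il1b was 0.155, 0.780, 0.678 and 0.750, and in MC it was 1.10, 1.40, 0.626, 0.929 and 0.746. It reached 1.93, 0.920, 8.59, 2.60 and 1.74 in Chemo and ran from 1.54 to 6.10 in MC + Chemo. Every MC + Chemo tumor lay above every MC tumor, and every Chemo tumor above every CTRL tumor. MC + Chemo 52, low in S100a8 itself, held 2.04. Over both diets the ratio to Il1b was 3.42 times higher with chemotherapy (two-sided exact permutation p = 0.000103, 0.000661 adjusted over the 11 ratios), and that to Csf3r 2.81 times higher (exact permutation p = 0.000120, adjusted 0.000661). For Retnlg the ratio was 2.80 times higher (exact permutation p = 0.00249, adjusted 0.00548). For Clec4d it was 2.31 times higher (exact permutation p = 0.0601) and for Trem1 1.86 times (exact permutation p = 0.121). In each S100a8 ratio the log2 difference was larger in Chemo against CTRL than in MC + Chemo against MC. It was 2.23 and 1.32 for Il1b and 2.25 and 0.73 for Csf3r. For Retnlg it was 2.53 and 0.44, and for Clec4d 2.21 and 0.21. The exchange between the calprotectin subunits themselves was small: S100a8 gained 1.15 times on S100a9 (exact permutation p = 0.0156, adjusted 0.0246).

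**Figure D3:**
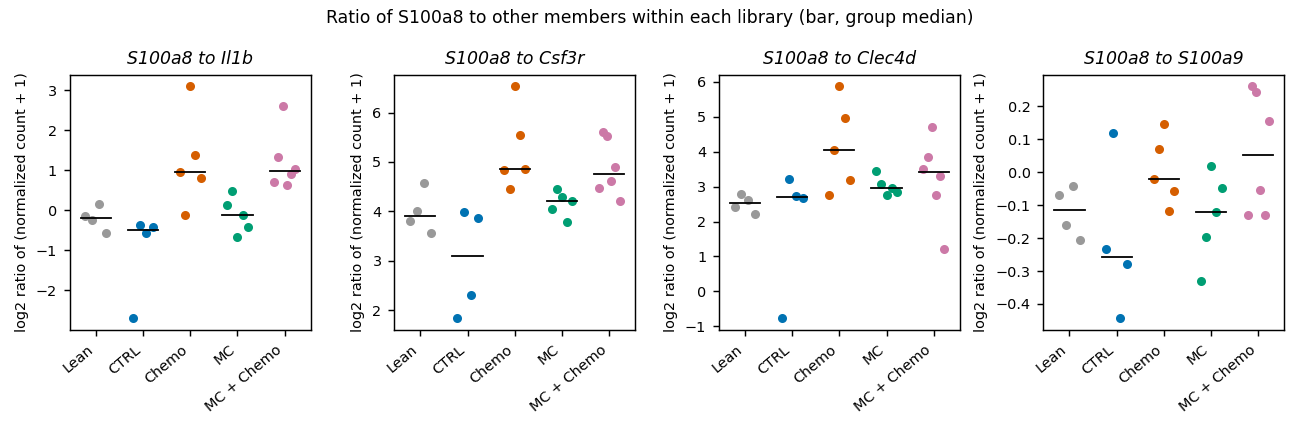
Log2 ratio of S100a8 to Il1b, Csf3r, Clec4d and S100a9 (y axis, normalized counts plus 1) in each library of the 5 groups (x axis); points are tumors and bars are group medians. For Il1b every treated tumor lies above every untreated tumor of the same diet, while for Clec4d the groups overlap.

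The members fell into looser and tighter pairs across the 24 libraries, which share their depth and tissue mix, so the correlations are a description. Besides S100a8 with S100a9, the closest pair was Il1b with Trem1 at a Spearman correlation of 0.83, followed by Clec4d with Trem1 at 0.66 and Csf3r with Il1b at 0.65. S100a8 with Il1b stood at 0.29. Taken as deviations from each group's mean, S100a8 with Il1b stood at 0.59 and Il1b with Trem1 at 0.83. Retnlg was the loosest, at 0.20 with Clec4d and 0.20 with Trem1.

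**Figure D4:**
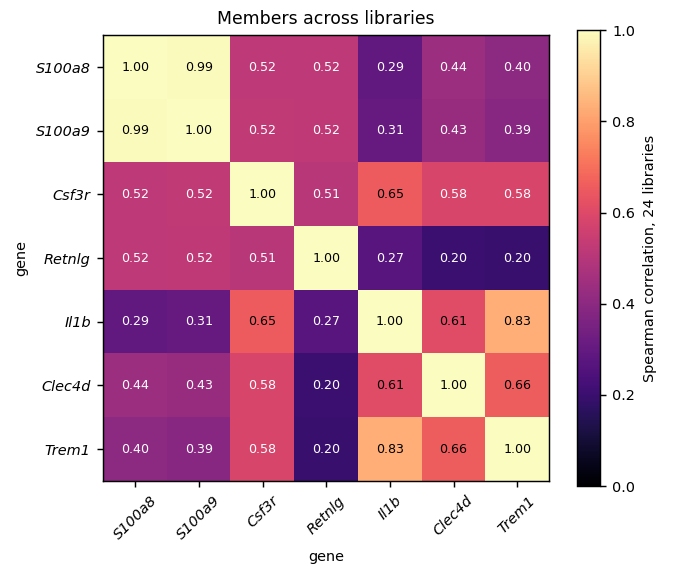
Spearman correlation between members (both axes) over the 24 libraries, on log2 scaled counts. S100a8 and S100a9 form the closest pair at 0.99, Il1b and Trem1 the next at 0.83.

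The genes outside the list whose level was most like the mean of the 7 standardized members were taken by rank among 15022 genes. Among the first 10 were Cstdc4 (Spearman correlation 0.93 over 24 libraries), Cxcr2 (0.89), Arg2 (0.87), Stfa2l1 (0.87), Slpi (0.86), Clec4e (0.82), Tgfbi (0.78), Gpr84 (0.76) and Mxd1 (0.76). Cstdc4 and Stfa2l1 belong to the stefin family of protease inhibitors, and Clec4e encodes Mincle, the partner lectin of Clec4d.

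Genes made earlier in neutrophil development were set beside the members. Camp encodes the cathelicidin peptide of secondary granules. Its level was 3.84, 1.93, 0 and 2.51 in CTRL, 4.80, 65.1, 538, 420.4 and 46.6 in Chemo, and 4.76, 2.72, 0.596, 2.58 and 1.29 in MC. In MC + Chemo it ran from 3.24 to 156 with a median of 25.6. Every Chemo tumor lay above every CTRL tumor, by little in Chemo 19. Camp rose over both diets by 5.42 on the log2 scale (SE 0.92, adjusted p = 0.0470 by edgeR) and was 1 of the 4 murine genes called there. The call held in 4 of the 20 fits that each left out 1 library (adjusted p from 0.0221 to 0.134 by edgeR), and in 5 of 8 other settings. It was lost when MC + Chemo 5 was counted as MC (adjusted p = 0.214 by edgeR), without the 3 libraries with an extra cleanup and with library sizes taken over both genomes. With 0 to 4 reads per library in CTRL and MC, the size of such a fold depends on the small prior count of the fit. Camp passed the filter on low counts through the treated tumors, so its p rests on reads there.

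Ngp, a neutrophil granule protein of the same stage, was at 0.960, 0.966, 0 and 1.26 in CTRL and 10.8, 22.1, 747, 398 and 47.5 in Chemo. Ngp ran from 0.596 to 10.9 in MC and from 0.880 to 137 in MC + Chemo, so these groups overlapped. Its log2 fold change over both diets was 5.74 (SE 1.05, adjusted p = 0.0658 by edgeR, 2.41e-06 by DESeq2, which called it). Ltf, lactoferrin, reached 229 in Chemo 33 and 116 in Chemo 34 against at most 1.28 in CTRL, yet was at 0 in Chemo 19. It ran from 0 to 6.89 in MC and from 0.880 to 37.2 in MC + Chemo, which overlapped too. Over both diets its adjusted p was 0.136 by edgeR and 0.00116 by DESeq2, which did not call it. Mmp8, neutrophil collagenase, had a log2 fold change of 1.45 (adjusted p = 0.241 by edgeR) and Chil3, a chitinase-like protein of neutrophils and macrophages, 1.86 (adjusted p = 0.166 by edgeR, 0.00116 by DESeq2, which called it). Camp, Ngp and Ltf passed the filter on low counts through the treated tumors, so their p rest on reads there. For this reason no count or median is given over the 10 of 12 listed secondary and gelatinase granule genes that were tested. Lcn2, Hp and Pglyrp1 of the same list lay at 0.31, 0.04 and -0.10, and Lcn2 ran from 0.039 without Chemo 33 to 1.11 without CTRL 17. Mmp9 and Cybb, also of this list, lay below 0 by DESeq2, at -0.74 and -0.17 (adjusted p = 0.943 and 0.959).

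Primary granule enzymes, the earliest set, were read at low counts. Prtn3, proteinase 3, was read in all CTRL and MC tumors, with 9, 7, 2 and 16 reads in CTRL and 3, 18, 12, 23 and 3 in MC. It had 7, 33, 82, 57 and 4 reads in Chemo and 2 to 112 in MC + Chemo (log2 fold change over both diets 1.96, adjusted p = 0.501 by edgeR, 0.0674 by DESeq2), so the groups overlapped. Mpo, Elane and Ctsg were at or near 0 without the drugs. Mpo, myeloperoxidase, had 1, 0, 0 and 0 reads in CTRL, 3, 67, 65, 61 and 1 in Chemo, 1, 0, 2, 0 and 1 in MC and 0 to 6 in MC + Chemo. Elane, neutrophil elastase, had 17, 39 and 27 reads in Chemo 30, Chemo 33 and Chemo 34 and 16 in MC + Chemo 43. CTRL held 1 Elane read in all and MC held 0. Ctsg, cathepsin G, had 0 reads in both CTRL and MC, 3 to 22 in Chemo and 0 to 9 in MC + Chemo. Mpo and Ctsg were too low for the edgeR filter. DESeq2 gave them adjusted p of 0.00116 and 0.000415 over both diets but did not call them, as their mean normalized counts were not above 30. These p rest on reads in the treated tumors. Chemo 30 had a high Mpo count beside the lowest S100a8 of its group, and Chemo 67 had a high S100a8 beside 1 Mpo read. Among the 11 treated tumors the summed level of the 6 primary granule and precursor genes analysed had a Spearman correlation of -0.04 with S100a8.

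**Figure D5:**
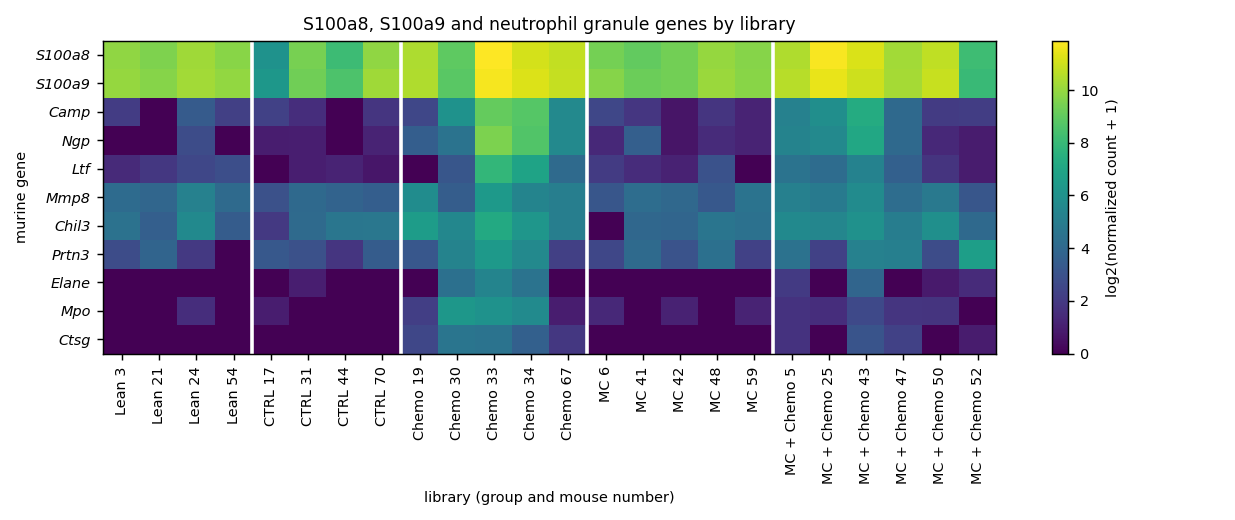
Level of S100a8, S100a9 and 9 granule genes (y axis) in each of the 24 libraries grouped by treatment (x axis), as log2 of the normalized count plus 1 (color). Camp, Ngp and Ltf are bright in Chemo 33, Chemo 34 and MC + Chemo 43 and dark in CTRL, MC and Lean.

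Mature neutrophil genes outside the members showed a median log2 fold change of 0.12 over both diets among the 21 tested, beside -0.03 for all genes. At an unadjusted p below 0.05, 3 were higher and 0 lower, beside 2.39% and 3.3% of all genes tested. Those with the smallest p were Fpr1, the formyl peptide receptor (0.73, adjusted p = 0.654 by edgeR), Alox5ap of leukotriene synthesis (0.40, adjusted p = 0.740 by edgeR) and Ifitm6 (0.79, adjusted p = 0.752 by edgeR). Cxcr2 lay at 0.32 and Il1r2, the interleukin-1 decoy receptor, at -0.45.

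Partners of the members in their pathways were also tested over both diets. At an unadjusted p below 0.05, 2.39% of all genes tested were higher and 3.3% lower, so no result is read from a single gene in a list. Of 13 chemoattractant, growth factor and receptor genes tested, 1 was higher at an unadjusted p below 0.05, C5ar1, the complement C5a receptor, at a log2 fold change of 0.38. In the interleukin-1 pathway 1 of 19 was higher, the alarmin Il33 at 0.56, and Il1rn, the receptor antagonist, lay at -0.49 (adjusted p = 0.899 by edgeR). In Csf3r signalling 1 of 11 was higher, the transcription factor Cebpd at 0.57, and Socs3, a feedback inhibitor, lay at 0.18. Among 9 adaptors and kinases of Trem1 and Clec4d and 6 receptors of S100a8 and S100a9, 0 passed at that level, with Tyrobp, the DAP12 adaptor, at 0.28 and Tlr4 at 0.21. Of these genes edgeR and DESeq2 called 0.

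Markers of other cells were set beside the S100a8 and S100a9 difference. Over both diets 2.39% of all genes tested were higher and 3.3% lower at an unadjusted p below 0.05. The 10 macrophage markers had a median log2 fold change of 0.07 and the 8 pan-leukocyte markers 0.12, with 0 past an unadjusted p of 0.05 in either list. Of 8 monocyte markers 2 were higher at that level, Ly6c2 at 1.00 and the chemokine receptor Ccr2 at 0.50. With MC + Chemo 5 counted as MC, Ly6c2 lay at 0.34. Of 6 dendritic cell markers 2 were lower at an unadjusted p below 0.05, with a median log2 fold change of -0.32. Among 6 mast cell markers 0 passed that level, and of 2 T and B cell markers tested 1 was lower. Both eosinophil markers tested were lower at that level, Siglecf at -1.21 and Ccr3 at -1.65. Their levels were low, with means of 7.44 and 4.01 in treated and 17.7 and 13.9 in untreated tumors. Prg2, an eosinophil marker not tested by edgeR, went the other way at 0.22 by DESeq2 (adjusted p = 0.988). Of 4 keratinocyte markers tested 2 were higher at that level. The keratinocyte sum of 5 genes ran from 348 to 963 in CTRL, 400.4 to 1359 in Chemo, 501 to 896 in MC and 834 to 1452 in MC + Chemo. This sum was 348 in CTRL 17, the tumor lowest in S100a8, and 400.4 in Chemo 33, the tumor highest in S100a8. The part of keratinocytes in the S100a8 difference was not tested.

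Red-cell genes also differed: all 5 tested were higher over both diets at an unadjusted p below 0.05 (2.39% of all genes tested), with a median log2 fold change of 1.58. By edgeR 0 were called (background 0.0266%). DESeq2 called all 5 (background 0.126%), with adjusted p from 0.00184 for Hbb-bs to 0.0326 for Hba-a2. Their sum ran from 694 to 2390 in CTRL, 3740 to 14743 in Chemo, 3159 to 11125 in MC, 6044 to 21831 in MC + Chemo and 4576 to 5165 in Lean. CTRL thus lay below each other group in this sum, MC and Lean included. Chemo 33 and Chemo 34, with the highest S100a8 of their group, had the lowest red-cell sums of that group, 3740 and 4147. Among the 11 treated tumors the red-cell sum had a Spearman correlation of -0.45 with S100a8. The part of blood content in the S100a8 difference was not tested.

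Human S100A8 and S100A9, the namesakes in the tumor cells, were read in the same libraries. Human S100A8 was 0.911, 58.5, 0 and 25.3 in CTRL and 103, 95.2, 28.3, 189 and 99.3 in Chemo, and ran from 92.7 to 674 in MC + Chemo. CTRL 17 and CTRL 44 were lowest in both the human and the murine gene. In MC + Chemo 52 the human gene was the highest of all libraries at 674 while the murine gene was at 293. Over the 24 libraries the murine and human levels had a Spearman correlation of 0.40 for S100a8 and 0.18 for S100a9. How reads matching both genomes were assigned is not given in the sources used here.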

How the data were processed

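RNA from 24 xenograft tumors was read by the authors as QuantSeq 3′ libraries with 50 bp forward reads and counted per gene on the BlueBee platform. The labels name the GRCm38 build and DESeq2 1.22.2. The read counts used here are raw counts per gene as deposited, 1 table per genome. The deposited normalized signal is those counts divided by 1 size factor per library, and was used for levels. Murine totals ran from 3664056 to 9892470 and human totals from 7796231 to 17621273, so precision at low genes is set by few reads. Each library is 1 mouse, and 0 of 47 pairs within groups were identical.

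The members and gene lists were chosen with earlier results of these data known. Counts were fitted with edgeR 4.0.16 (limma 3.58.1, R 4.3.3) by glmQLFit and glmQLFTest, with TMM scaling and filterByExpr, on the 20 libraries from high-fat fed mice, and Lean was compared with CTRL on all 24. Chemotherapy over both diets is the mean of Chemo minus CTRL and MC + Chemo minus MC. DESeq2 1.42.0 was the alternative. Single genes were also compared by two-sided exact permutation of mean log2(normalized count + 1), within diet where both diets were averaged. Genes outside the members are named by rule: up to 3 per list with the smallest edgeR p over both diets, and the 10 most like the members' mean, of which 1 is not reported here; Mmp8, Chil3, Mpo, Ctsg, Lcn2, Hp, Pglyrp1, Il1r2 and the human genes were added after their values were seen. On simulated counts with 200 changed genes among 15059, edgeR found 80% of log2 changes of 1 and 91% of changes of 2 over both diets. Of changes of 1 it found 39% in Chemo against CTRL and 56% in MC + Chemo against MC. The changed genes were picked at random among those with a mean count above 30. These shares therefore need not hold for genes as variable as S100a8. On the same counts DESeq2 found 84% and 92% over both diets, with 23 false calls beside 7 by edgeR. In MC + Chemo against MC the false calls were 26 by DESeq2 and 14 by edgeR. In Chemo against CTRL they were 14 and 5. The share of false calls among the genes called by DESeq2 in the tumors was not tested.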

Additional observations from a re-analysis of the deposited data

Results flagged for a closer look

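In the 7 members by 5 groups, 35 sets of libraries were searched for a library far from the rest, a search that flags about 1 in 20 by chance, and 1 was found. Clec4d in Lean 21 was 109 against 178 in the next Lean tumor, a gap of 0.864 of the group's range.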

How the results depend on the processing

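No paired analysis was possible because the groups share no mouse numbers. S100a8 and S100a9 kept a positive log2 fold change for Chemo against CTRL, MC + Chemo against MC and both diets under every alternative run and with each library left out. Over both diets the S100a8 value ran from 1.48 to 1.59 under the alternatives and from 1.38 (without Chemo 33) to 1.85 (without CTRL 70) with 1 library left out. A pseudocount of 10 in place of 1 left its exact permutation p at 0.00842. S100a9 in Chemo against CTRL moved from 1.73 to 2.40 without CTRL 70. The cause of the differences below was not tested.

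Members called over both diets went from 0 by edgeR to 1 by DESeq2. The number of murine genes called by DESeq2 was 14 for Chemo against CTRL, 8 for MC + Chemo against MC, 21 over both diets, 226 for MC against CTRL, 119 for MC + Chemo against CTRL and 1 for Lean against CTRL, where edgeR called 0, 0, 4, 0, 0 and 0. Over both diets edgeR called 0 with library sizes taken over both genomes, 1 with MC + Chemo 5 as MC, 0 without the 3 libraries with an extra cleanup, and from 0 to 6 with 1 library left out. With 1 library left out it called 0 to 1 in Chemo against CTRL, in MC + Chemo against CTRL and in Lean against CTRL.

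Small log2 fold changes changed sign. Without the 3 cleanup libraries Csf3r was -0.0833 over both diets and -0.0847 in MC + Chemo against MC. It was -0.029 over both diets with MC + Chemo 5 as MC, where Hp was -0.038. With library sizes over both genomes Retnlg was 0.068 in Chemo against CTRL and Trem1 -0.094 in MC + Chemo against MC. Trem1 was -0.081 there without the 3 cleanup libraries. Retnlg in Lean against CTRL was -0.0022 by DESeq2 and -0.0056 with RLE scaling.

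With 1 library left out, the ranges that included both signs were, for Chemo against CTRL, -0.35 to 0.17 in Csf3r, -0.30 to 0.14 in Retnlg, -0.30 to 0.31 in Il1b and -0.11 to 0.56 in Clec4d. For MC + Chemo against MC they were -0.45 to 0.0087 in Il1b and -0.14 to 0.30 in Trem1. Over both diets they were -0.061 to 0.22 in Csf3r, -0.27 to 0.051 in Il1b, -0.18 to 0.40 in Hp and -0.25 to 0.061 in Pglyrp1. The interaction of Il1b ran from -0.52 to 0.11, and Retnlg in Lean against CTRL from -0.27 to 0.26.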
